A study of Mus musculus with 10 samples.

Results

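The insulin-like growth factor 1 gene Igf1, the receptor genes Igf1r and Insr and the 7 IGF binding protein genes Igfbp1 to Igfbp7 were followed in old mouse kidney under long-term calorie restriction. These 10 genes were found by their symbols in the platform annotation, which gave 28 probe sets that carry exactly 1 symbol, out of 18194 named genes and 45101 probe sets on the Affymetrix Mouse Genome 430 2.0 array. Probe sets were assigned to the genes by symbol alone. Kidneys came from 5 male C57BL/6 mice on long-term calorie restriction and 5 male C57BL/6 mice on a control diet, all aged 30 months, with 1 mouse per array. The sources used here give neither the degree nor the length of the restriction, nor whether the mice had eaten before the kidneys were taken. Values are MAS5 signals, a brightness per probe set on a linear scale, and each difference is the mean log2 signal of the calorie-restricted mice minus that of the control mice, given with limma's standard error (SE, n = 5 per diet). A probe set passed the test when its p, adjusted by the Benjamini-Hochberg method over all 22519 probe sets tested, was under 0.05.

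IGF1 is a growth factor made mainly by the liver under growth hormone, and also within the kidney. It acts through the IGF1 receptor, a tyrosine kinase related to the insulin receptor. IGF binding proteins hold IGF in blood and tissue, lengthen its stay and limit or direct its access to the receptor, and proteases free it again. Lower IGF1 in blood is a known feature of calorie restriction in rodents.

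Signals were higher in calorie-restricted kidney at 3 of 6 probe sets of Igfbp4 and 1 of 2 of Igfbp5, both binding proteins made within the kidney. The growth factor and both receptors did not pass the test. After quantile normalization only the Igfbp5 call held. With a measure of RNA quality in the model, the 3′ to 5′ ratio described below, 0 held. Of the 27 probe sets of the 10 genes that were bright enough to be tested, 4 passed (14.8%), all higher in calorie restriction. Over all tested probe sets 6.09% passed in either direction and 2.93% passed as higher. Of the 4, 3 belong to Igfbp4, so the share of 14.8% does not count separate genes. By the brightest probe set of each gene, 2 of the 10 passed, against 6.1% of all tested genes. None of the 27 passed as lower by limma, and 3 were lower and 7 higher at an unadjusted p under 0.05. The share of all tested probe sets under that unadjusted p was not counted. Such counts, here and below, therefore have no background beside them. The median difference over the 27, which counts Igfbp4 with 6 probe sets, was 0.07, against 0.00 over all tested probe sets, and it was −0.009 after quantile normalization. Taking only the brightest probe set of each of the 10 genes, the median was −0.11, with 4 above 0 and 6 below. The plot of all differences shows the 4 that passed as squares.

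**Figure D1:**
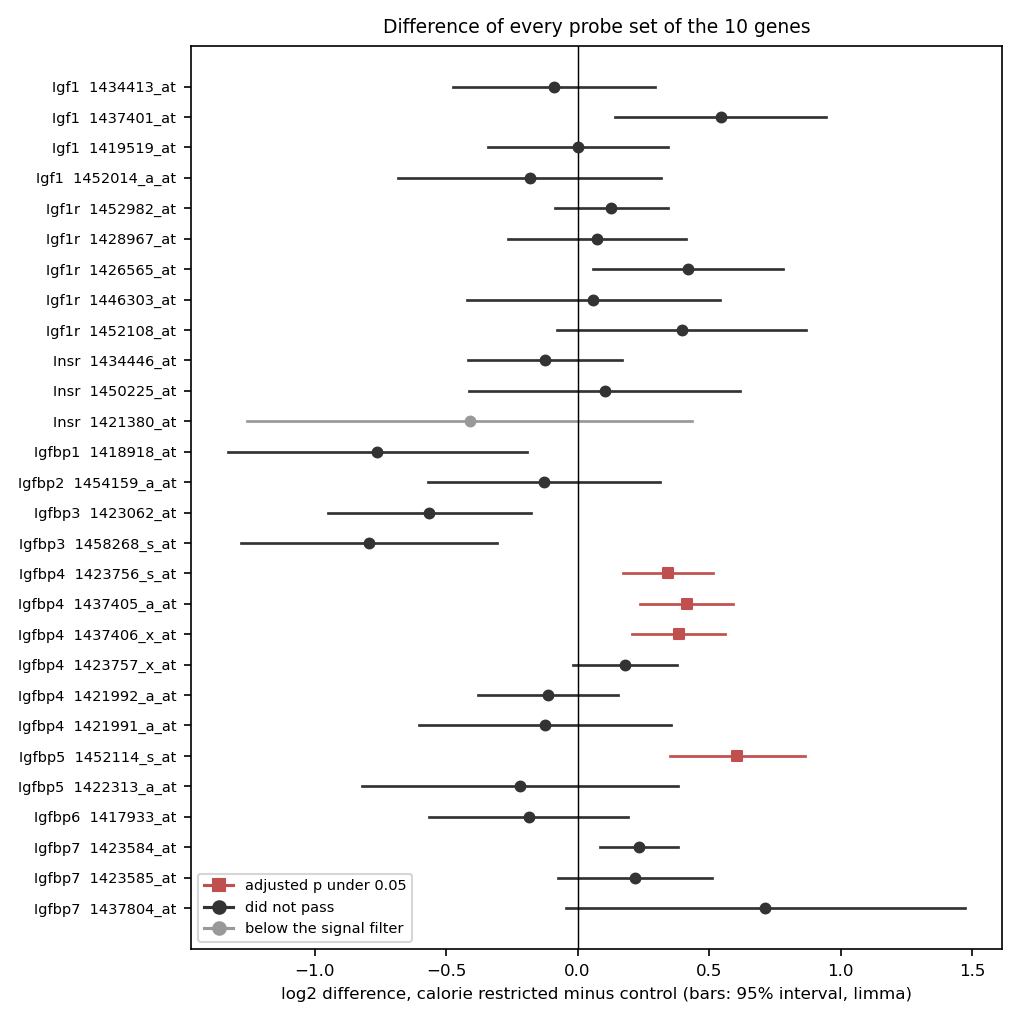
Log2 difference, calorie restricted minus control, of each of the 28 probe sets of the 10 genes (points, with 95% intervals from limma, n = 5 mice per diet). The 4 squares, 3 probe sets of Igfbp4 and 1 of Igfbp5, passed the test and lie right of 0, while both Igfbp3 probe sets and the Igfbp1 probe set lie left of 0 and did not pass.

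Each array had a median signal between 115 and 136, and the arrays shared a mean of 500 once 2% of probe sets was trimmed from each end. The log2 ratio of 3′ to 5′ signal of the Gapdh and Actb control probe sets, which rises when RNA is shorter, averaged 1.67 ± 0.46 in calorie-restricted kidney and 1.05 ± 0.26 in control kidney (SD, n = 5 each, 2-sided exact permutation p = 0.0476). The ratio was 2.21, 2.01, 1.75, 1.24 and 1.16 in calorie-restricted replicates 1 to 5 and 0.91, 0.76, 0.94, 1.39 and 1.25 in control replicates 1 to 5. The first 3 of the calorie-restricted arrays exceeded every control and the last 2 did not. With that ratio in the model 0 of the 27 member probe sets passed by limma (10 had an unadjusted p under 0.05), and 9 of all 22519 passed. All 11 proximal tubule markers were above the brightness filter, and 8 of the 11 passed as higher. Their summed signals were 201900 to 236600 on calorie-restricted and 136200 to 170600 on control arrays. Several of them are among the brightest signals of the array, which ran higher in calorie restriction as a class, as given below. Markers of fat cells were also measured, with summed signals of 7302 to 12880 on calorie-restricted arrays and 15490 to 21360 on control arrays. In a piece of whole kidney, fewer cells of a type and less RNA per cell cannot be told apart.

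Igf1, the ligand, was read by 4 probe sets, and none passed. The brightest, 1434413_at, had signals of 286, 220, 313, 249 and 423 in calorie-restricted replicates 1 to 5, against 322, 312, 246, 368 and 313 in control replicates 1 to 5. The groups overlapped throughout, with the highest and the lowest of the 10 arrays both calorie restricted. Its difference was −0.09 ± 0.18, with a 95% interval of −0.47 to 0.29 (adjusted p = 0.785). The 4 probe sets differed in direction. At 1437401_at the signal was 359, 276, 426, 306 and 330 in calorie-restricted kidneys and 272, 205, 178, 332 and 197 in control kidneys. All 5 calorie-restricted arrays lay above the control median there, and control replicate 4 lay within their range. The difference was 0.54 ± 0.19 (adjusted p = 0.0902, 2-sided exact permutation p = 0.0397). The other two probe sets differed by 0.00 ± 0.16 and −0.18 ± 0.23. No single direction for Igf1 can be read from these 4 probe sets.

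Igf1r encodes the receptor that carries most IGF1 signalling. Its brightest probe set, 1452982_at, had signals of 4500, 4302, 4907, 3910 and 3914 in calorie-restricted kidneys and 4147, 3924, 3752, 3369 and 4522 in control kidneys. Calorie-restricted replicate 3 was the highest array and control replicate 4 the lowest, and the remaining arrays were mixed. The difference was 0.13 ± 0.10, with a 95% interval of −0.09 to 0.34 (adjusted p = 0.439). All 5 probe sets of the gene had differences above 0, between 0.06 and 0.42, and none passed. The value of 0.42 ± 0.17 came from 1426565_at (adjusted p = 0.135), where signals were 1250, 1366, 1828, 1328 and 1155 in calorie-restricted and 1326, 1025, 1139, 685 and 1054 in control kidneys. Every calorie-restricted array was above the control median there, and control replicate 4 was the lowest of the 10.

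Insr encodes the insulin receptor, which in the kidney tubule is known for its part in sodium and glucose handling. Its brightest probe set, 1434446_at, had signals of 2105, 1819, 1930, 1585 and 1425 in calorie-restricted kidneys, against 1449, 2108, 2001, 1859 and 2253 in control kidneys. The groups overlapped almost fully, and the difference of −0.12 ± 0.14 had a 95% interval of −0.42 to 0.17 (adjusted p = 0.604). A dimmer probe set differed by 0.10 ± 0.24. The third, 1421380_at, fell below the brightness filter and gave −0.41 ± 0.39 in a fit with no filter. The plot of the brightest probe set of each gene shows these overlaps beside the separation of Igfbp4.

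**Figure D2:**
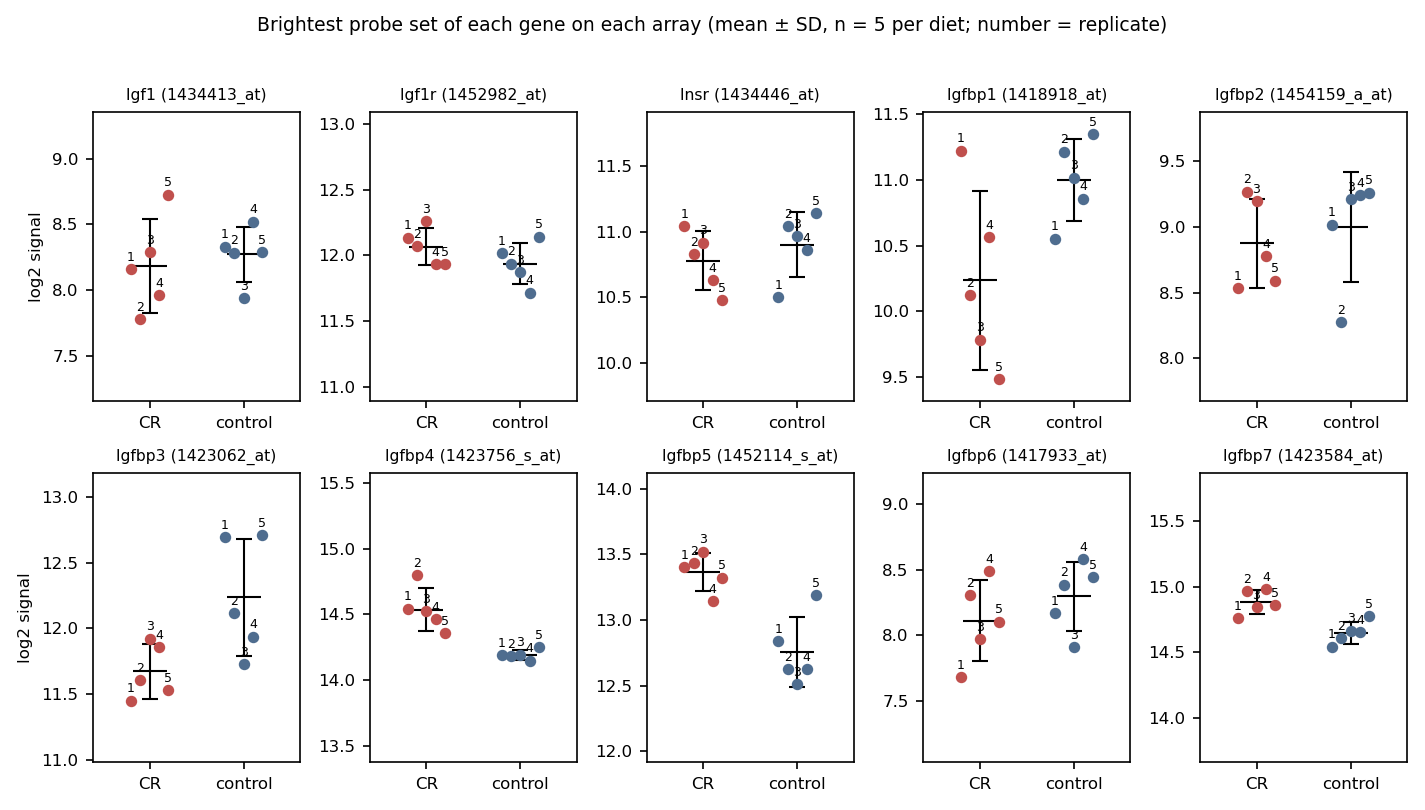
Log2 MAS5 signal of the brightest probe set of each of the 10 genes on each array (points numbered by replicate), with the mean and SD of 5 calorie-restricted mice (CR, red) and of 5 control mice (blue). The groups do not overlap at Igfbp4, overlap by 1 control array at Igfbp5 and Igfbp7, and are mixed at Igf1, Igf1r, Insr, Igfbp2 and Igfbp6. Each panel spans the same width in log2 units around its own centre, since levels of different probe sets cannot be compared.

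Igfbp4 encodes a binding protein that mostly restrains IGF action and is cut by the protease PAPP-A, and it was read by 6 probe sets, 3 of which were higher in calorie-restricted kidney. At the brightest, 1423756_s_at, signals were 23860, 28500, 23540, 22600 and 20950 in calorie-restricted kidneys and 18680, 18570, 18720, 18130 and 19450 in control kidneys. Every calorie-restricted array was above every control array, and calorie-restricted replicate 2 was the highest. The difference was 0.35 ± 0.08, a fold of 1.27 (adjusted p = 0.0288). The largest difference of the 3 was at 1437405_a_at, with signals of 24150, 28750, 24100, 22110 and 21310 in calorie-restricted and 16900, 17890, 18660, 17630 and 18760 in control kidneys. Again the groups did not overlap, and the difference was 0.42 ± 0.08, a fold of 1.33 (adjusted p = 0.0198). The third, 1437406_x_at, differed by 0.38 ± 0.08 (adjusted p = 0.0236). Its groups were also apart, and these 3 are the only probe sets of the 27 whose groups did not overlap, against 7.12% over all tested probe sets. The exact permutation p was 0.00794 for each of the 3, the smallest that 5 against 5 arrays can give. Probe sets of 1 gene can share probes and a transcript, so the 3 are not separate observations.

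The other 3 Igfbp4 probe sets did not pass, and 2 of them lay below 0. At 1423757_x_at the difference was 0.18 ± 0.09 (adjusted p = 0.227). At 1421991_a_at signals were 473, 965, 805, 1290 and 1211 in calorie-restricted kidneys and 988, 1148, 984, 794 and 996 in control kidneys. Calorie-restricted replicate 1 was the lowest array there, and calorie-restricted replicates 4 and 5 were the highest. Its difference was −0.12 ± 0.22 (adjusted p = 0.761). At 1421992_a_at the values were 4000, 5446, 4887, 6237 and 6068 in calorie-restricted kidneys and 5976, 5685, 5997, 4684 and 6259 in control kidneys, a difference of −0.11 ± 0.12 (adjusted p = 0.595). Calorie-restricted replicates 1, 2 and 3, the arrays with the highest 3′ to 5′ ratios, were below replicates 4 and 5 at both of these probe sets and above them at the 3 that passed, as the plot of the 6 Igfbp4 probe sets shows.

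**Figure D3:**
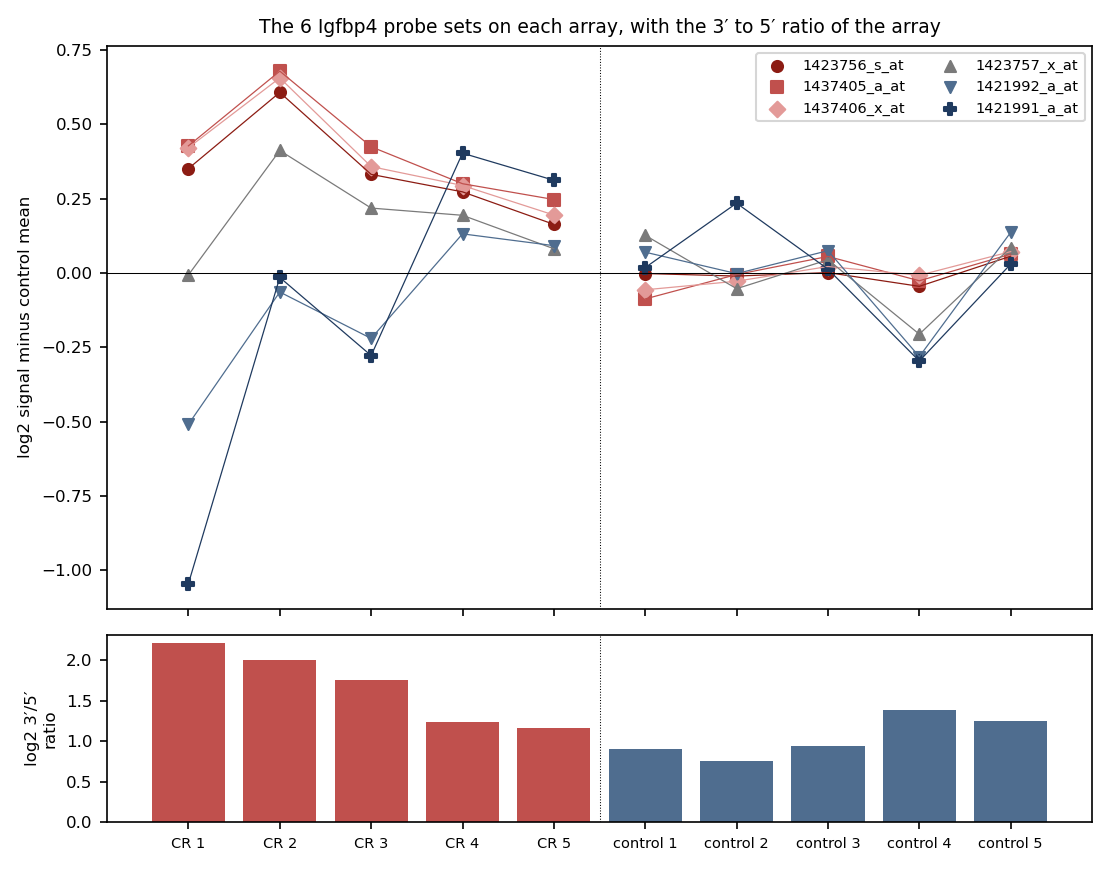
Upper panel, log2 signal of the 6 Igfbp4 probe sets on each array, minus the mean of the 5 control arrays of that probe set (lines only join the points of a probe set). Lower panel, log2 ratio of 3′ to 5′ signal of Gapdh and Actb on the same arrays. At 1437405_a_at all 5 calorie-restricted arrays lie above all controls, while 1421991_a_at is lowest on calorie-restricted replicate 1, which has the highest ratio, 2.21.

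With that ratio of 3′ to 5′ signal in the model, the differences at 1423756_s_at, 1437405_a_at and 1437406_x_at were 0.23, 0.28 and 0.23, and none passed in limma (adjusted p = 0.322, 0.244 and 0.297). In replicates 4 and 5 of each diet alone, whose mean log2 ratios were 1.20 in calorie-restricted and 1.32 in control kidney, they were 0.21, 0.26 and 0.21 (adjusted p = 0.353, 0.260 and 0.346). After quantile normalization, which makes the distribution of signals the same on every array, the differences were 0.09, 0.16 and 0.14 and the calls were lost (adjusted p = 0.371, 0.114 and 0.158). Some of these calls were also lost when single arrays were left out. At 1437405_a_at this held without calorie-restricted replicate 1 (adjusted p = 0.0502) and without control replicate 2 (adjusted p = 0.0531). The difference was 0.41 in both fits. Those fits called 226 and 125 of all probe sets, against 1371 with all arrays.

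Igfbp5, a binding protein that attaches to extracellular matrix and can act there apart from IGF, was higher in calorie-restricted kidney at 1 of its 2 probe sets. At 1452114_s_at signals were 10840, 11070, 11750, 9056 and 10240 in calorie-restricted kidneys, against 7323, 6317, 5838, 6321 and 9333 in control kidneys. In calorie restriction, 4 of 5 arrays were above all controls, and replicate 4 lay just below control replicate 5, the highest control. The difference was 0.61 ± 0.12, a fold of 1.52 (adjusted p = 0.0198, 2-sided exact permutation p = 0.0159). The dimmer probe set, 1422313_a_at, differed by −0.22 ± 0.28, with a 95% interval of −0.82 to 0.38 (adjusted p = 0.653), and all 5 calorie-restricted arrays lay within the control range of 156 to 506. The call at 1452114_s_at held after quantile normalization (0.51, adjusted p = 0.0458). It was lost when calorie-restricted replicate 1, calorie-restricted replicate 2 or control replicate 2 was left out (0.60, 0.59 and 0.57, adjusted p = 0.0502, 0.0512 and 0.0558), with the 3′ to 5′ ratio in the model (0.46, adjusted p = 0.236), and in replicates 4 and 5 of each diet (0.33, adjusted p = 0.410).

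The promoters of both genes with a probe set that passed are shown, since those probe sets changed in the same direction. They come from RefSeq (GRCm38.p6) and run from 250 bases before to 50 after the annotated start. Igfbp4 lies on the plus strand at chr11:99040994-99041293, with a GC content of 71.3%. Igfbp5 lies on the minus strand at chr1:72874816-72875115, with a GC content of 56.3%. The median GC content of all 32851 mouse promoters in the table was 52.7%. The capitals in the Igfbp4 promoter mark a match to the TATA box letters TATAAA, 28 bases before the start.
Igfbp4 promoter: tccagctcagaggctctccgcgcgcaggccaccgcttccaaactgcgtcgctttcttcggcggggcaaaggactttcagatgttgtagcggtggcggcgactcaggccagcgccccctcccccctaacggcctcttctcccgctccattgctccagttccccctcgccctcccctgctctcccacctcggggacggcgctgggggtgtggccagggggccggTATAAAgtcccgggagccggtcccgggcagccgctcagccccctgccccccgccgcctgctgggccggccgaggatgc
Igfbp5 promoter: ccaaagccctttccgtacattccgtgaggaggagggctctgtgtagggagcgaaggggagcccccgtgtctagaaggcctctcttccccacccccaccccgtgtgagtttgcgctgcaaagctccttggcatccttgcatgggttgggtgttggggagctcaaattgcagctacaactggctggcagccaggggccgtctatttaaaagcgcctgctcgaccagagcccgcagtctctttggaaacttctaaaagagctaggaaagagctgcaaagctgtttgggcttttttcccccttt
Both strands were searched for 7 motifs. They were the FoxO element (TGTTTAC), the insulin response sequence (CAAAACA), the hypoxia core (ACGTG) and the glucocorticoid half-site (TGTTCT). The AP-1 site (TGANTCA), the TATA box and the Sp1 GC box (GGGCGG) were the others. TATAAA was found in 13.6% of all promoters. The Igfbp5 window holds no match to any of the 7.

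Igfbp7 encodes a protein with low affinity for IGF, and it is known in the clinic as a urinary marker of stressed tubule cells. At its brightest probe set, 1423584_at, signals were 27730, 31970, 29470, 32360 and 29700 in calorie-restricted kidneys, against 23890, 24970, 26010, 25750 and 28080 in control kidneys. Of the 5 calorie-restricted arrays 4 were above all controls, and replicate 1 was just below control replicate 5. The difference was 0.23 ± 0.07 and did not pass (adjusted p = 0.0580, 2-sided exact permutation p = 0.0159). After quantile normalization it was −0.11 (adjusted p = 0.307), so its direction depended on the scaling. It passed as higher under a stricter filter and with array weights (adjusted p = 0.0381 and 0.0423). The other two probe sets also lay above 0, with 0.22 ± 0.14 at 1423585_at and 0.71 ± 0.35 at 1437804_at (adjusted p = 0.331 and 0.218).

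Of the 4 probe sets that passed, the 3 of Igfbp4 belong to the brightest signals of the array, as does 1423584_at of Igfbp7. In the brightest 1% of tested probe sets, 226 in all, 220 differences were above 0 and 124 passed as higher (54.9%), with 0 as lower. The median difference of this class was 0.29, and −0.01 after quantile normalization. The 3 Igfbp4 differences, 0.35 to 0.42, lay above that median and the Igfbp7 difference, 0.23, below it, as the plot of difference against brightness shows. Igfbp5, at a mean log2 signal of 13.06, lay below that class, whose lowest mean log2 signal was 14.18.

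**Figure D4:**
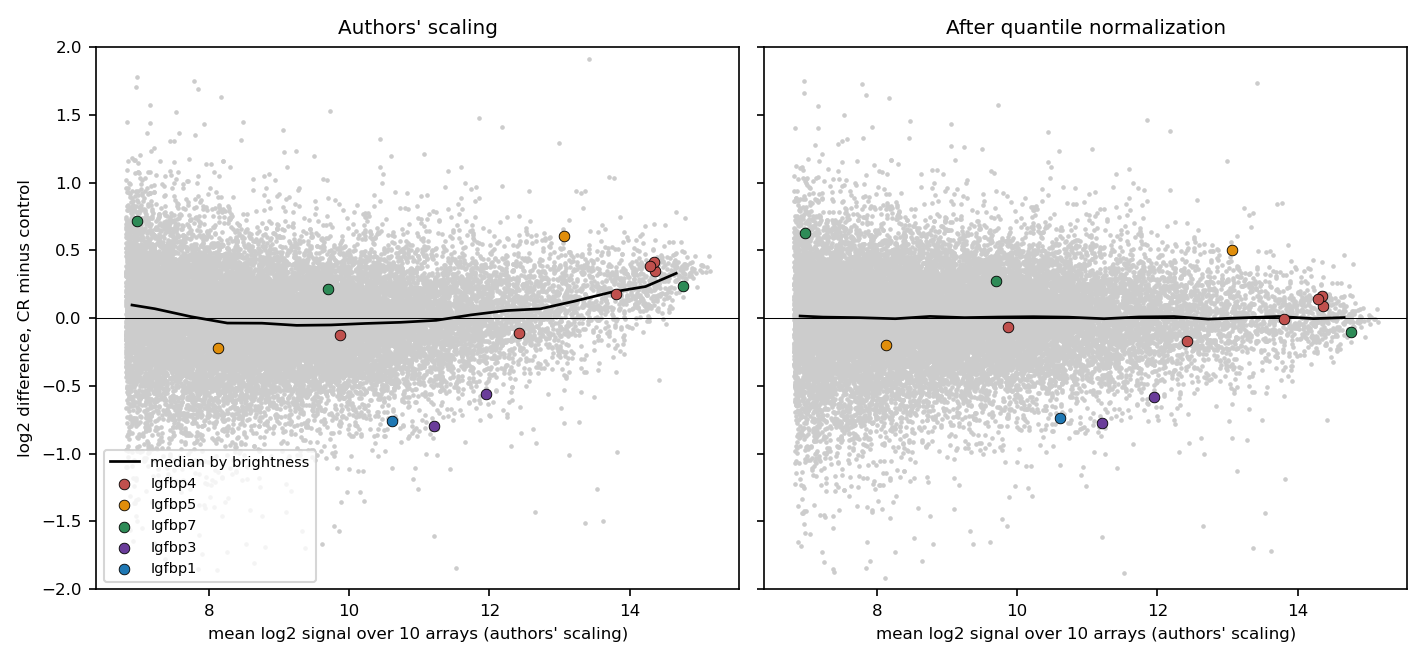
Log2 difference, calorie restricted minus control, against the mean log2 signal over all 10 arrays, with the authors' scaling (left) and after quantile normalization (right). Grey points are the 22519 tested probe sets, coloured points are those of 5 binding protein genes, and the line is the median by brightness. With the authors' scaling the line climbs at the bright end, where the 3 Igfbp4 points that passed lie above it, while 2 dimmer Igfbp4 points lie below 0. After quantile normalization the line stays near 0. The brighter Igfbp5 point (0.51), the Igfbp3 points (−0.78 and −0.59) and the Igfbp1 point (−0.74) stay apart from it. The dimmer Igfbp5 point lies at −0.20.

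Igfbp1 and Igfbp3 were lower in most calorie-restricted kidneys, without passing the test. Igfbp1 encodes a binding protein whose transcription insulin represses in liver, and which is known to climb in fasting. At its one probe set, 1418918_at, signals were 2392, 1116, 882, 1516 and 715 in calorie-restricted kidneys, against 1502, 2379, 2073, 1856 and 2606 in control kidneys. Replicates 2, 3 and 5 of the calorie-restricted mice were below all controls, replicate 4 was close to the lowest control, and replicate 1 was above all but one control. The difference was −0.76 ± 0.27, with a 95% interval of −1.33 to −0.19 (adjusted p = 0.0928, 2-sided exact permutation p = 0.0714). Without calorie-restricted replicate 1 the difference was −1.01 ± 0.21 and passed (adjusted p = 0.0447). It was −1.16 with the 3′ to 5′ ratio in the model and −1.08 in replicates 4 and 5 of each diet (adjusted p = 0.191 and 0.171).

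Igfbp3 encodes the main carrier of IGF in blood, where it forms a complex with the acid-labile subunit. At its brightest probe set, 1423062_at, signals were 2797, 3111, 3880, 3711 and 2957 in calorie-restricted kidneys, against 6621, 4430, 3395, 3920 and 6695 in control kidneys. All 5 calorie-restricted arrays were below the control median, and control replicate 3 lay within their range. The difference was −0.56 ± 0.18, a fold of 0.677 (adjusted p = 0.0723). The second probe set, 1458268_s_at, had signals of 1131, 1644, 2163, 2540 and 1871 in calorie-restricted kidneys and 4399, 2962, 2584, 2101 and 4226 in control kidneys. There too every calorie-restricted array was below the control median, with control replicate 4 inside their range. The difference was −0.79 ± 0.23, a fold of 0.577 (adjusted p = 0.0531), and the exact permutation p was 0.0317 for each of the 2 probe sets. Several settings moved it past the threshold, with adjusted p = 0.0428 under a stricter filter, 0.0420 with arrays centred on their medians, 0.0458 with array weights and 0.0306 without calorie-restricted replicate 4. With the 3′ to 5′ ratio in the model the difference at 1458268_s_at was −0.38 (adjusted p = 0.590) and at 1423062_at −0.50 (adjusted p = 0.409).

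Igfbp1 and Igfbp3 are neighbours on chromosome 11, with no protein-coding gene between them in the RefSeq annotation, and their promoters are shown for that reason. Igfbp1 lies on the plus strand at chr11:7197537-7197836 (GC content 54.3%) and Igfbp3 on the minus strand at chr11:7213874-7214173 (GC content 71.7%). The capitals in the Igfbp1 promoter mark the letters of the insulin response sequence, 108 bases before the start, which 6.28% of all promoters hold.
Igfbp1 promoter: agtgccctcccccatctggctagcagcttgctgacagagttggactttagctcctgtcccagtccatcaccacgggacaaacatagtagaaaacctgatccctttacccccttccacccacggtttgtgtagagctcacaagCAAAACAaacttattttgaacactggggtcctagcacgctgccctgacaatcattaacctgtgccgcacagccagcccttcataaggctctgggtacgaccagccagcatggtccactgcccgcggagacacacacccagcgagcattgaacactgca
Igfbp3 promoter: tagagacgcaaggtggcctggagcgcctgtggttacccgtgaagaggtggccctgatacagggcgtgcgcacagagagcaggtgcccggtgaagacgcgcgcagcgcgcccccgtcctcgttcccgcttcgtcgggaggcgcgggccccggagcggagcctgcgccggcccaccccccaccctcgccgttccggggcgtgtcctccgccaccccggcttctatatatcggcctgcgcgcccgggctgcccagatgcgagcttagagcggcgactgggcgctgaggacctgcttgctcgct
The Igfbp3 window holds no match to the 7 motifs. Among the 9 genes with a promoter in the table, the letters CAAAACA were found in Igfbp1 alone. TGTTTAC, the only sequence searched as a FoxO element and found in 3.65% of all promoters, was in none. Its absence does not show that a promoter lacks a FoxO site. These are matches of letters and were not tested as sites. Igfbp2 and Igfbp5 are likewise neighbours, on chromosome 1. Igfbp2 differed by −0.13 ± 0.21 without passing, and the 2 probe sets of Igfbp5 differed by 0.61 and −0.22.

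Igfbp2 and Igfbp6 did not pass. Igfbp2 encodes a binding protein with high levels in early life, and its probe set 1454159_a_at had signals of 372, 617, 588, 439 and 386 in calorie-restricted kidneys, against 519, 310, 594, 606 and 614 in control kidneys. Control replicate 2 was the lowest of the 10 arrays and the other 4 controls lay among the calorie-restricted ones. The difference was −0.13 ± 0.21, with a 95% interval of −0.57 to 0.31 (adjusted p = 0.731). Igfbp6 encodes a binding protein with a preference for IGF2, and 1417933_at had signals of 206, 317, 251, 359 and 275 in calorie-restricted kidneys and 288, 334, 240, 383 and 348 in control kidneys. The groups overlapped, and the difference of −0.19 ± 0.18 had a 95% interval of −0.56 to 0.19 (adjusted p = 0.537).

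Other genes of the pathway were read by the brightest tested probe set of each. Of 86 tested in 8 lists, 0 passed as higher and 9 as lower (10.5%, against 6.1% of all 12196 tested genes). That 6.1% counts both directions, with 376 genes higher and 368 lower. It is also the background of the list counts below. At an unadjusted p under 0.05 by limma, 7 of the 86 were higher and 18 lower. The share of all tested genes under that unadjusted p was not counted, so these counts have no background beside them. With the 3′ to 5′ ratio in the model 0 passed, and leaving out any one of calorie-restricted replicates 1, 2 and 3 or control replicates 2 and 4 left 1. The other ligands and receptors of the insulin family had 3 tested genes and no call, with Igf2r, the receptor that clears IGF2, at 0.13 ± 0.14 and Insl6 at −0.19 ± 0.23. Of 16 tested proteases and partners of the binding proteins, 3 fell. Adamts1, a protease known to cut several matrix proteins, averaged 711 ± 76 in calorie-restricted and 1231 ± 222 in control kidney (SD, n = 5 each), with no overlap and a difference of −0.78 ± 0.13 (adjusted p = 0.0141). Plat, the tissue plasminogen activator, fell by 0.56 ± 0.14 (adjusted p = 0.0363), while its dimmer probe set went the other way at 0.33 (adjusted p = 0.535). Adam9, a membrane protease, fell by 0.31 ± 0.09 (adjusted p = 0.0499). Igfals, which encodes the acid-labile subunit, differed by 0.16 ± 0.18 and the Igfbp4 protease gene Pappa by −0.45 ± 0.23, and neither passed.

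Of 6 tested proteins that share the N-terminal domain of the binding proteins, 1 fell. Ccn2, connective tissue growth factor, averaged 4255 ± 646 in calorie-restricted kidney and 6213 ± 980 in control kidney (SD, n = 5 each), with no overlap between the groups. Its difference was −0.55 ± 0.13 (adjusted p = 0.0304). The median of these 6 was −0.35. Downstream, none of 12 receptor substrates and adaptors passed, with Grb10, an adaptor that damps insulin and IGF1 receptor signalling, at −0.43 ± 0.14 and Crk, another adaptor, at −0.28 ± 0.10 (adjusted p = 0.0752 and 0.108). Of 23 tested genes of the PI3 kinase, AKT and target-of-rapamycin pathway, 1 fell, Pik3cd, a catalytic subunit typical of white blood cells, by 0.54 ± 0.15 (adjusted p = 0.0469). All 3 tested FoxO factors, which insulin signalling keeps out of the nucleus, lay above 0 without passing, with Foxo3 and Foxo4 both at 0.22 (adjusted p = 0.472 and 0.562).

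Of 15 tested negative regulators, 2 fell. Sesn1, a stress-induced sensor that restrains target of rapamycin, fell by 0.54 ± 0.13 (adjusted p = 0.0343), and its 2 other probe sets passed as lower too. Socs3, a cytokine-induced brake on receptor signalling, fell by 0.81 ± 0.21 (adjusted p = 0.0416). Of 9 tested genes of the growth hormone axis, 2 fell, Stat3, a transcription factor downstream of cytokine receptors, by 0.50 ± 0.12 and Socs2, a growth hormone target that limits the growth hormone receptor, by 0.72 ± 0.19 (adjusted p = 0.0345 and 0.0387). The growth hormone receptor gene Ghr, added here after its value was seen, averaged 13430 ± 2533 in calorie-restricted and 9296 ± 2203 in control kidney (SD, n = 5 each). Its difference of 0.54 ± 0.15 did not pass (adjusted p = 0.0512).

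Markers of other kidney cells were read too, and their part in these results was not tested. Below they are set beside member and pathway values by direction alone. Beside the higher Igfbp4 and Igfbp5 probe sets, proximal tubule markers had a median difference of 0.38, with 10 of 11 above 0. Several of these markers, among them Kap, Miox and Fbp1, belong by signal to the brightest 1% of tested probe sets. In that class 124 of 226 passed as higher, and its median of 0.29 became −0.01 after quantile normalization. Below that class by signal, Slc22a6, Slc5a2 and Aqp1 passed as higher (0.60, 0.38 and 0.38). Cubn, Lrp2 and Slc5a12, also below it, did not pass (0.38, 0.16 and −0.16). Whether more proximal tubule RNA or the trend with brightness lies behind these values was not tested. Beside the lower values of Igfbp3 and Igfbp1, none of 9 endothelial markers passed (median −0.17, summed signals 9011 to 10200 on calorie-restricted and 9122 to 12030 on control arrays). Of 5 podocyte markers all were below 0 and 1 was lower, Wt1 (median −0.28, sums 3370 to 4415 on calorie-restricted and 3438 to 6070 on control arrays). Of 11 fibroblast, mesangial and smooth muscle markers 2 were lower (median −0.26, sums 13320 to 16880 on calorie-restricted and 15360 to 23200 on control arrays). Beside the lower Pik3cd, Stat3 and Socs3, 3 of 9 macrophage markers were lower (median −0.70), with summed signals of 12940 to 22460 on calorie-restricted arrays and 17140 to 33350 on control arrays. Of 6 fat cell markers 2 were lower (median −0.79). None of 8 markers of the thick limb and distal convoluted tubule passed (median 0.08), 1 of 8 collecting duct markers was higher (median 0.03), and of 8 liver markers 1 was higher and 1 lower (median 0.11).

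The genes whose log2 signals ran most like those of the members that passed were taken over the 10 arrays, which share diet and RNA quality, and are given as a description. For Igfbp5 they were Calr (Pearson r = 0.945), Pik3r2 (0.941) and Limch1 (0.941), and for Igfbp4 they were Hadh (0.981), Krt81 (0.968) and Htt (0.967). With each diet's mean taken off, the correlations were 0.805 to 0.932 for the first 3 and 0.884 to 0.940 for the other 3. Of the 6 genes, Calr, Hadh, Krt81 and Htt passed the diet test as higher, by 0.44, 0.46, 0.59 and 0.50, and Pik3r2 and Limch1 did not.

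The plot of settings gives the brightest probe set of 5 binding protein genes under every other way of processing that was tried. That of Igfbp5 stayed above 0 and those of Igfbp3 and Igfbp1 stayed below 0 in all of them. That of Igfbp7 turned below 0 under quantile normalization. The dimmer Igfbp5 probe set, 1422313_a_at, stayed below 0 (−0.22 as reported, −0.45 in replicates 4 and 5 of each diet).

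**Figure D5:**
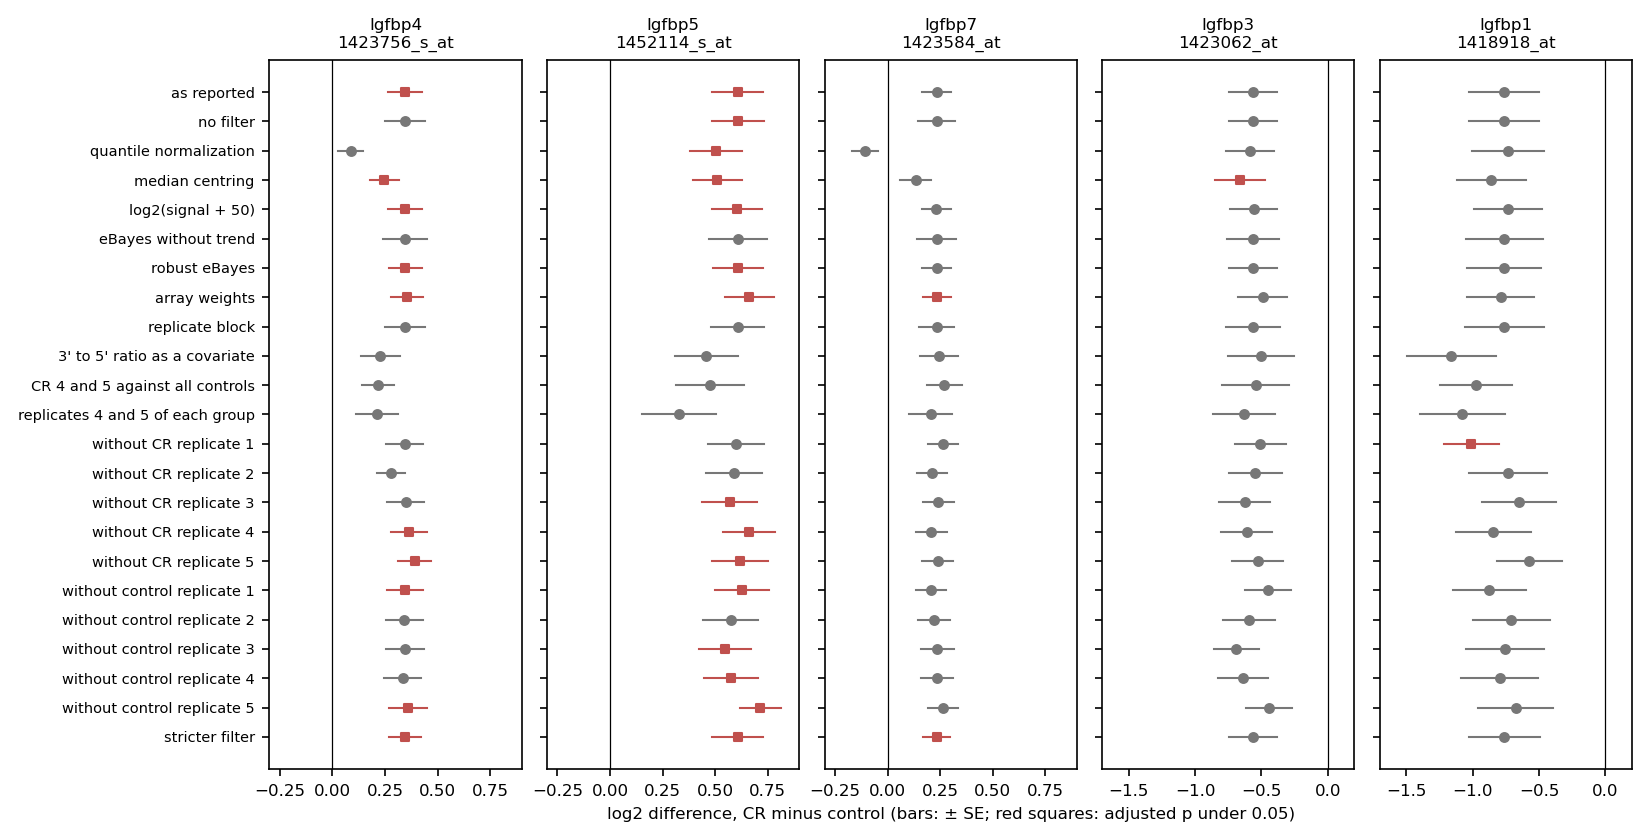
Log2 difference, calorie restricted minus control, of 1 probe set each of Igfbp4, Igfbp5, Igfbp7, Igfbp3 and Igfbp1, as reported (top line) and under each other setting (points, with SE bars). Red squares passed the test under that setting. The Igfbp4 difference shrinks from 0.35 to 0.09 under quantile normalization, and the Igfbp1 difference passes without calorie-restricted replicate 1.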

How the data were processed

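Per the submitters' processing notes, the authors used MAS5 and Affymetrix Expression Console, with no version named in the sources used here. The deposited table gives each probe set a linear intensity. Every array had the same trimmed mean, a scaling that does not level arrays at each brightness. Of 45101 probe sets, 64 were array controls, 34958 had 1 gene symbol, 932 several and 9211 none. Gene IDs of 34754 were found in a RefSeq table, which changed 0 symbols. Probe sets ending in s_at or x_at can bind related transcripts.

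Signals under 1 were set to 1 (922 values) and log2 was taken. Probe sets with a mean log2 signal of at least 6.81, the median, were tested in R 4.3.3 by limma 3.58.1 (lmFit, eBayes with intensity trend, 2-sided, Benjamini-Hochberg over 22519 probe sets, threshold 0.05). Exact permutation tests ran over the 10 arrays. Number of arrays, 5 per diet, limits the precision.

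The 10 genes, the pathway lists and the markers were chosen with earlier results of these data known. Every member is described. In each list, up to 4 genes per direction past the threshold are named, or the 2 with the smallest p, and Igfals, Pappa and Ghr were added after their values were seen. For members that passed, the 3 genes with the highest correlation are named. Alternatives covered the filter, normalization, log offset, eBayes options, array weights, a replicate block, the 3′ to 5′ ratio, single arrays left out, and the threshold.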

Additional observations from a re-analysis of the deposited data

Results flagged for a closer look

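In 2 of 56 groups of 5 arrays, 1 array stood apart from the other 4 by more than Dixon's 95% limit (0.71 of the group's range), and chance gives about 1 in 20 such groups. At Igf1r 1446303_at, calorie-restricted replicate 5 had a signal of 206.3, with a gap of 0.725 of the range of its group. At Igfbp2 1454159_a_at, control replicate 2 had a signal of 310.2, with a gap of 0.753 of the range of its group. Neither probe set passed the diet test.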

How the results depend on the processing

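The number of member probe sets that passed was 4 as reported (1371 of all probe sets, 9 of the pathway list genes), 1 with no filter (287, 1), 1 after quantile normalization (750, 3) and 0 with eBayes without trend (243, 1). It was 0 with the 3′ to 5′ ratio in the model (9, 0), 0 for calorie-restricted replicates 4 and 5 against the 5 controls (1, 0) and 0 for replicates 4 and 5 of each group (198, 3). It was 0 at an adjusted p of 0.01 (1, 0) and 9 at 0.1 (3246, 19). It was 6 under a stricter filter (1554, 12), with median centring (1533, 11) and with array weights (2292, 12). The stricter filter tested 17 member probe sets. The 4 reported ones were among the 6 each time. With the replicate number as a block the number of members was 0 (127, 1). Same-numbered arrays did not deviate together (correlations −0.14 to −0.09), and the labels give nothing that pairs them. Weak correlations alone cannot exclude a pairing. Where limma called 0 members, 8 to 11 had an unadjusted p under 0.05, again with no share over all probe sets beside it. Leaving out 1 array gave 0 to 5 members, 125 to 2481 of all probe sets and 1 to 13 list genes. The number of members was 0 without control replicate 2 (125 of all probe sets). It was 1 without calorie-restricted replicate 1 (226), Igfbp1 as lower and none of the reported 4. It was 1 without calorie-restricted replicate 2 (172). It was 2 without calorie-restricted replicate 3 (324) and 2 without control replicate 4 (410). Igfbp4 1423756_s_at and 1437406_x_at lost the call without any one of calorie-restricted replicates 1, 2 and 3 or control replicates 2 and 4, and 1423756_s_at without control replicate 3 (adjusted p 0.0514 to 0.0701). The difference of Igf1 1434413_at turned to 0.0238 with that ratio in the model and 0.0695 for calorie-restricted replicates 4 and 5 against the 5 controls, and ran from −0.226 to 0.0103 with 1 array left out. With replicates 4 and 5 set against the 5 controls, Igf1r 1452982_at turned to −0.0045 and Igfbp6 to 0.0004. Igfbp7 1423584_at turned to −0.11 under quantile normalization. The causes were not tested. Fits with fewer arrays have fewer degrees of freedom. The brightest probe sets of Insr, Igfbp1 to Igfbp5 kept their direction under the settings run. Median centring moved the median of all tested probe sets to −0.098.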
